A study of Mus musculus with 6 samples.

Results

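The leptomeningeal-type fibroblasts described here were 1138 of 60729 nuclei (1.87%) in single-nucleus RNA-seq libraries of photothrombotic lesions of the mouse cortex. A member nucleus held at least 1000 UMIs (unique molecular identifiers, each counting 1 captured RNA molecule), less than 5% of them mitochondrial. It had a UMI for at least 2 of the 4 pan-fibroblast genes Col1a2, Col3a1, Col5a2 and Bicc1. It also had a UMI for at least 3 of the 6 leptomeningeal markers Lama1, Lamc3, Tmem132c, Aldh1a2, Edn3 and Slc6a13, and for at most 1 of Slc22a6, Slc22a8, Slc13a4, Slc47a1, Ptprc and Csf1r. The first 4 of these excluded genes encode solute transporters, and Ptprc and Csf1r mark leukocytes and myeloid cells. The UMIs of these 16 genes chose the members, so their presence in the members is a property of the choice and not a result. Members made up 5.20% of the 21867 fibroblast-gated nuclei, which passed the pan-fibroblast count and did not hold UMIs of both Ptprc and Csf1r. The other fibroblasts used as a comparison were the 18412 that were not members and held fewer than 2 of the 4 transporters.

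The leptomeninges are the arachnoid and the pia, thin sheets of fibroblasts that cover the brain and follow its larger vessels inward. Their fibroblasts build the laminin and collagen IV basement membrane on which astrocyte endfeet rest, make retinoic acid through the enzyme Aldh1a2, and carry transporters for amino acids and other solutes of the cerebrospinal fluid. After a cortical injury, fibroblasts from the meninges and the vessels enter the lesion and lay down collagen, a process in which transforming growth factor β (TGFβ) is a principal signal. TGFβ is stored in the matrix in a latent form, can be freed by integrins such as αvβ8, and acts through the receptor pair Tgfbr1 and Tgfbr2.

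The study asked how the cells of the lesion changed when fibroblasts could not receive TGFβ or when integrin αvβ8 was blocked. Control (Ctrl) mice were wild type with no treatment labelled. ADWA11 mice were wild type and received the αvβ8-blocking antibody ADWA11 from the day of injury and weekly thereafter. Tgfbr2-cKO mice carried Col1a2(creER) with Tgfbr2(flox) and had no treatment labelled. Lesions were dissected 7 or 21 days after the injury (given as dpi, days post injury), tissue of 1 male and 1 female mouse was combined in each library, and the ages of the mice are not among the labels. The deletion was driven by an inducible Cre under a Col1a2 promoter, so it reaches Col1a2-expressing cells only. The study used 2 floxed alleles of Tgfbr2 (exon 2 or exon 4), and tamoxifen is not among the labelled treatments. Each group was 1 library, so there was no replicate, no p-value is given, and every interval below covers counting error only. All comparisons with the treatments used the same Ctrl libraries, and a difference between libraries cannot be told apart from a difference between the pooled mice. Values are listed in the order Ctrl, ADWA11 and Tgfbr2-cKO throughout.

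The libraries held 6328 to 12656 nuclei past the filter, with a median of 5221 to 9114 UMIs per nucleus. Members numbered 302, 405 and 104 at 7 dpi and 145, 66 and 116 at 21 dpi. Their median depth at 7 dpi was 7576, 10372 and 5971 UMIs and that at 21 dpi 6056, 6043 and 7123 UMIs, and pooled over nuclei they gave 484594 to 4549084 UMIs per library. Nuclei of other classes also held fibroblast RNA, and the myeloid nuclei that passed the pan-fibroblast count were 45.5%, 36.9% and 3.72% at 7 dpi. At 21 dpi these shares were 53.3%, 31.2% and 6.64%, and free RNA and joined nuclei, which can both give such UMIs, were not told apart. For the marker count the background was smaller, with 3 or more markers in 0.245% to 1.74% of myeloid nuclei and in 0% to 2.23% of the 37 to 1210 oligodendrocyte nuclei per library. Among the members, 129 nuclei also held 3 or more markers of another cell class, most often myeloid cells (54), oligodendrocyte precursors (31) and astrocytes (22). These other-class nuclei held 9.47%, 15.3% and 37.7% of all member UMIs at 7 dpi, compared with 11.4%, 27.4% and 34.4% later. In the Tgfbr2-cKO library at 7 dpi, 12 nuclei with neuron markers held 35.0% of the member UMIs, and the summed level of the neuron markers in members was 1714 CPM (UMIs per 1000000 UMIs of the pooled members, mitochondrial genes left out) there against 7.22 CPM in Ctrl. Some gene values below are therefore also given over the members without the 129 other-class nuclei, a choice made after the data were seen. Where none is printed, as for the rule genes, the value includes the other-class nuclei. Between 21 and 61 cell barcodes were shared by each pair of libraries, and 1 barcode sequence occurred among the members of 2 libraries.

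Of the 6 markers, Lama1 and Lamc3 encode laminin chains, Aldh1a2 makes retinoic acid from retinal, Edn3 encodes the peptide endothelin 3, Slc6a13 takes up GABA and taurine, and Tmem132c is a membrane protein of little-known function. In mm10 with the GENCODE M21 annotation, Lama1 lies at chr17:67697259-67822647, Lamc3 at chr2:31887291-31946539, Tmem132c at chr5:127241808-127565793, Aldh1a2 at chr9:71215789-71296243, Edn3 at chr2:174760619-174784042 and Slc6a13 at chr6:121300227-121337733, all on the plus strand. UMIs were counted per whole gene. Among members, 482 nuclei held 3 of the markers, 319 held 4, 238 held 5 and 99 held all 6. The most frequent pair was Lama1 with Aldh1a2, found together in 790 nuclei, and the least frequent was Lamc3 with Edn3, found together in 221 nuclei.

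The 12 genes with the largest ratio of members to other fibroblasts, given further on, were followed over the number of markers. Since they were picked for being higher at 3 or more markers, a higher level there is a description and no finding. Slc7a11, which exchanges cystine for glutamate, was measured by marker number in fibroblast-gated nuclei with at most 1 excluded gene and without other-class nuclei. Its median level over libraries was 117 CPM with 0 markers, 953 CPM just outside the threshold at 2 markers, 1355 CPM just inside it at 3 and 1929 CPM at 6. Slc6a12, a carrier of betaine and GABA, went from 6.33 CPM at 2 markers to 20.3 CPM at 3 and 102 CPM at 6, and Wnt4, a Wnt ligand, from 9.63 to 26 and 104 CPM. Not all genes took this course. Ranbp3l was at 715 CPM at 2 markers, 931 CPM at 3 and 713 CPM at 6, and Slc6a20a at 508, 777 and 492 CPM. The median of Col7a1 was 44.5 CPM at 2 markers, 122 CPM at 3 and 131 CPM at 6, but in Ctrl at 7 dpi it stood at 289 CPM at 2 markers and 182 CPM at 3. The nuclei behind these levels numbered 33 to 188 per library at 2 markers, 36 to 135 at 3 and 1 to 42 at 6. In the 2 libraries with at least 20 nuclei at 6 markers, Slc6a12 stood there at 100.1 CPM (Ctrl at 7 dpi) and 87.4 CPM (ADWA11 at 7 dpi), and over all 6 libraries it ran from 0 to 200.1 CPM.

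**Figure D1:**
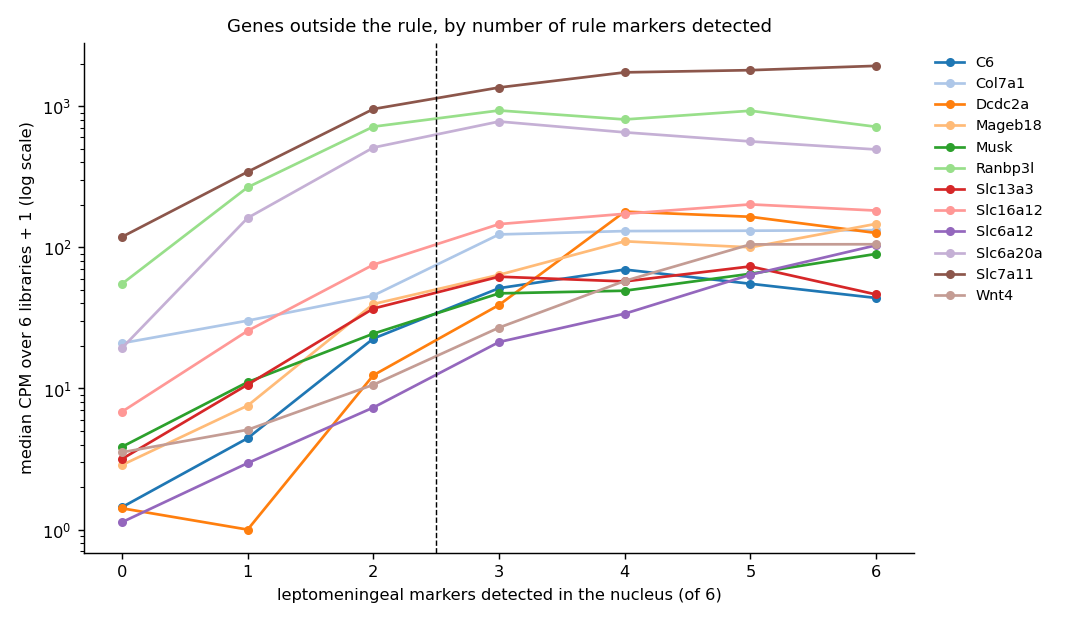
Median level over the 6 libraries (CPM + 1, log axis) of the 12 genes picked for the largest ratio of members to other fibroblasts, in fibroblast-gated nuclei with at most 1 excluded gene and without other-class nuclei, grouped by how many of the 6 leptomeningeal markers had a UMI (0 to 6); the dashed line between 2 and 3 is the rule's threshold. Slc7a11 goes from 117 CPM at 0 markers to 1929 CPM at 6, and Slc6a12 from 0.128 to 102 CPM, with 1 to 42 nuclei per library at 6 markers.

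Set beside other fibroblasts of the same library, the members held higher levels of several leptomeningeal genes. Of 19 leptomeningeal and vascular leptomeningeal genes listed apart from the rule, 7 were at least 2-fold higher in all 6 libraries (Slc7a11, Slc6a20a, Slc13a3, Ranbp3l, Cped1, Igfbp2 and Colec12) and 0 were lower. Of 7431 genes examined, 108 were higher (1.45%) and 240 lower (3.23%) in all 6 libraries. Because the rule itself separated the members from these nuclei, the counts describe the members and support nothing further. The 19 genes had a median log2 ratio of 1.77, against 0.04 over all genes. Of 5 arachnoid barrier genes 0 were higher, with a median of 0.24, and of 4 dural genes 0 were higher and 1 lower (Matn4), with a median of -0.54, lists too short to be read against 1.45%.

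Among the 12 genes with the largest median ratios were 5 solute carriers. Slc6a12 stood at 44.8, 34.5 and 42.8 CPM at 7 dpi and 39.5, 20.7 and 51.1 CPM at 21 dpi in members against 0.435 to 2.29 CPM in other fibroblasts, a median log2 ratio over libraries of 4.99 (4.18 to 6.62) with its lowest and highest library in brackets. The complement component C6 stood at 16, 45.3 and 39.5 CPM at 7 dpi and 74.1, 106 and 44.9 CPM at 21 dpi against 0.544 to 7.15 CPM (4.61, 2.65 to 6.18), and Wnt4 at 71.4, 64.1 and 126 CPM at 7 dpi and 42.5, 24.8 and 39.6 CPM at 21 dpi against 3.37 to 11.5 CPM (3.55, 2.80 to 3.97). In every library the members were above the other fibroblasts for all 3 genes. The other 9 were Slc6a20a, an imino acid carrier (3.97, 3.17 to 4.45), Musk, a receptor kinase best known from the neuromuscular synapse (3.70, 3.05 to 4.33), Slc7a11 (3.66, 2.14 to 4.77), Slc16a12, a creatine carrier (3.64, 2.00 to 4.67), Slc13a3, a dicarboxylate carrier (3.48, 2.77 to 4.77), Dcdc2a (3.48, 2.97 to 4.64), Mageb18 (3.47, 3.06 to 4.78), Ranbp3l (3.39, 2.07 to 4.07) and the collagen Col7a1. From the gene lists, Bmp6, a bone morphogenetic protein, had a ratio of 3.06 (2.65 to 4.27).

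Matrix genes of the members included Col7a1, the anchoring fibril collagen, at 194, 86.2 and 188 CPM at 7 dpi and 138, 37.3 and 54.2 CPM at 21 dpi against 3.19 to 92.9 CPM in other fibroblasts (3.49, 1.06 to 4.51). The network collagens Col4a5 (2.64, 2.10 to 3.80) and Col4a6 (2.90, 2.06 to 4.13) and the laminin chain Lamb1 (1.83, 1.16 to 3.09) were higher in all 6 libraries as well. Wnt5a (2.28, 1.61 to 2.77), the Wnt effector Lef1 (2.13, 1.71 to 3.28), the growth factor receptor Pdgfra (1.97, 1.51 to 3.17) and Cyp1b1, which can oxidise retinol (1.78, 1.12 to 2.79), were further list genes higher in all 6 libraries. On the low side Adamtsl3, a matrix protein, stood at 7.6, 2.65 and 3.29 CPM at 7 dpi and 12.8, 8.28 and 6.26 CPM at 21 dpi against 29.4 to 159 CPM (-3.72, -4.38 to -3.16). The other 11 named low genes, among them Grin2b, Lrrtm4 and Kirrel3, are neural genes. Without other-class nuclei among the other fibroblasts, 97 of 7168 genes were higher in all 6 libraries, 45 of them shared with the 108 above, and 66 were lower, 19 of them shared with the 240 above.

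A comparison with the transporter nuclei gave a shorter list of differences. Against the 2317 nuclei with at least 2 of the 4 transporters, 13 of 7173 genes were higher and 19 lower in all 6 libraries. In Tgfbr2-cKO at 7 dpi these nuclei numbered 36, against 605 other fibroblasts, which limits a count that needs every library. Slc47a1 also had a UMI in 52.6% of Ctrl and 47.6% of ADWA11 other fibroblasts at 21 dpi, other-class nuclei left out. The 2317 nuclei can therefore include fibroblasts of that kind, and how many was not counted. C6 (log2 ratio 2.55, 2.04 to 5.10) and Col7a1 (2.11, 1.67 to 4.19) were higher in the members in each library. By contrast, Slc6a20a (-0.68, -1.05 to 0.77), Slc13a3 (-0.82, -1.18 to 0.10) and Ranbp3l (-0.60, -1.15 to 0.02) were at a lower level in the members in the median library. Mageb18 (1.21, 0.22 to 4.52) was above the transporter nuclei in each library. Dcdc2a (0.59, -0.42 to 3.02), Musk (0.13, -0.10 to 1.77) and Bmp6 (-0.31, -0.81 to 1.13) had libraries on either side of no change. So did Lef1 (0.27, -0.36 to 1.60) and Lamb1 (1.11, -0.10 to 2.93). Cyp1b1 (0.47, 0.07 to 1.53), Col4a5 (1.04, 0.25 to 1.83) and Col4a6 (1.11, 0.24 to 3.29) were above the transporter nuclei in each library.

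The share of members among all nuclei depended on the group and the time. It was 3.82% (95% Clopper-Pearson interval 3.41 to 4.27) in Ctrl, 3.71% (3.36 to 4.08) in ADWA11 and 0.958% (0.783 to 1.16) in Tgfbr2-cKO at 7 dpi. At 21 dpi it was 1.20% (1.01 to 1.41), 0.521% (0.404 to 0.663) and 1.83% (1.52 to 2.19). The share was thus lowest in the Tgfbr2-cKO library at 7 dpi and in the ADWA11 library at 21 dpi. The log2 ratio to Ctrl was -2.0 (-2.33 to -1.67) for Tgfbr2-cKO and -0.04 (-0.26 to 0.18) for ADWA11 at 7 dpi, and 0.61 (0.24 to 0.97) and -1.20 (-1.65 to -0.77) at 21 dpi. From 7 to 21 dpi the Ctrl share fell by 1.67 on the log2 scale (-1.96 to -1.38). A share of all nuclei also moves with the amount of neural tissue in a library. Oligodendrocyte nuclei numbered 119, 181 and 1210 at 7 dpi and 224, 37 and 828 at 21 dpi, and their part in the shares was not tested.

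As a part of the fibroblast-gated nuclei the order was different. The members were 9.64% (8.63 to 10.7), 10.3% (9.38 to 11.3) and 14.0% (11.6 to 16.7) of them at 7 dpi. They were 1.87% (1.58 to 2.20), 1.31% (1.01 to 1.66) and 9.18% (7.65 to 10.9) at 21 dpi, so that the highest share at each time was in Tgfbr2-cKO. The log2 ratio of Tgfbr2-cKO to Ctrl was 0.53 (0.20 to 0.86) at 7 dpi and 2.30 (1.93 to 2.66) at 21 dpi. In female nuclei the value at 7 dpi was 0.25 (-0.33 to 0.80), an interval that includes 0, and in male nuclei it was 0.88 (0.34 to 1.39). The gated nuclei themselves numbered 3132, 3928 and 745 at 7 dpi and 7749, 5050 and 1263 at 21 dpi, and 1951, 2535 and 333 at 7 dpi and 5130, 3254 and 683 at 21 dpi without other-class nuclei. In every library the gate thus held nuclei with markers of another class. With other-class nuclei left out of both counts, the members made up 14.4%, 14.2% and 27.0% at 7 dpi. The values at 21 dpi were then 2.59%, 1.69% and 13.2%, in the same order.

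The excess of members among all nuclei in Tgfbr2-cKO at 21 dpi was not apart from 0 in every setting. Its log2 ratio was 0.37 (-0.03 to 0.76) without other-class nuclei, 0.26 (-0.18 to 0.69) with every nucleus thinned to 4000 UMIs, 0.89 (0.40 to 1.38) in female and 0.33 (-0.35 to 1.01) in male nuclei. The low share at 7 dpi was found in both sexes, at 0.577% of female and 1.82% of male Tgfbr2-cKO nuclei against 3.70% and 4.24% in Ctrl. Thinned to 4000 UMIs, with the shallower nuclei left out, the shares of all nuclei at 7 dpi were 4.31%, 3.63% and 0.815%. Those at 21 dpi were 1.37%, 0.576% and 1.64%. The excluded genes removed a further 37 to 347 nuclei per library, of which 27 to 215 held 2 or more of the transporters.

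**Figure D2:**
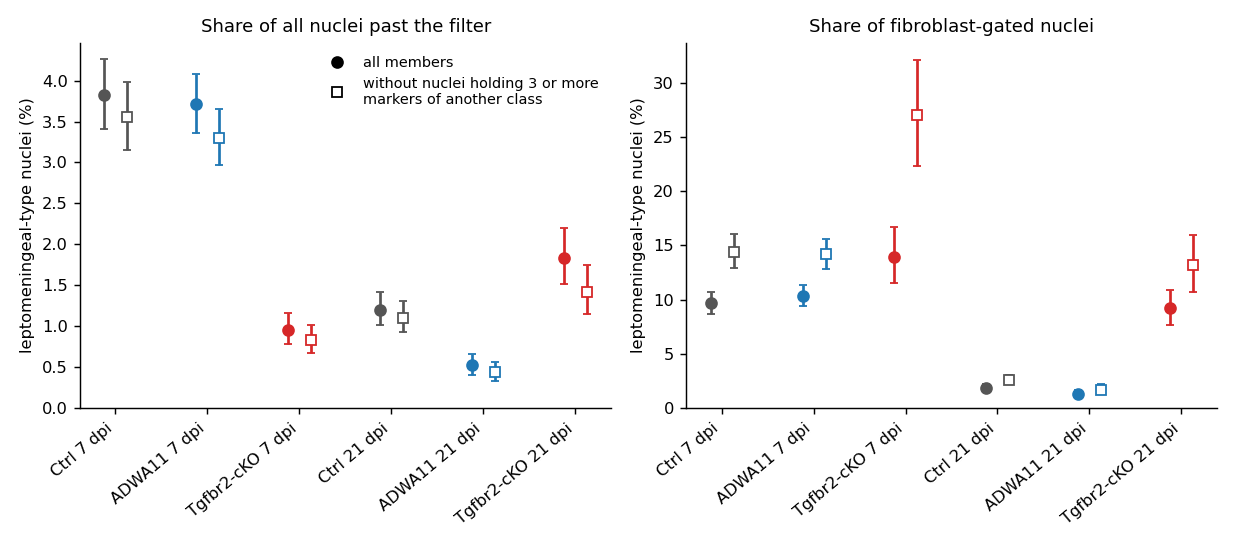
Members as a percent of all nuclei (left) and of fibroblast-gated nuclei (right) in each of the 6 libraries; grey is Ctrl, blue ADWA11 and red Tgfbr2-cKO, filled circles are all members, open squares leave out nuclei with markers of another class, and bars are 95% Clopper-Pearson intervals. Of all nuclei, Tgfbr2-cKO is lowest at 7 dpi (0.958%) and highest at 21 dpi (1.83%), while of fibroblast-gated nuclei it is highest at both times (14.0% and 9.18%).

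Each marker was then measured in nuclei that qualified on the other 5 markers, so that its own UMIs did not choose them. The other markers still chose these nuclei, and some of those markers differed between libraries themselves. For Lama1 the 7 dpi libraries left 221 (Ctrl), 308 (ADWA11) and 74 (Tgfbr2-cKO) such nuclei. Those of 21 dpi left 76, 25 and 66. How far this choice shaped the marker levels and ratios was not tested. Lama1 was the most abundant, at 740.0, 561 and 696 CPM at 7 dpi and 1185, 949 and 1147 CPM at 21 dpi, with a UMI in 76.9, 75 and 79.7% of these nuclei at 7 dpi and 93.4, 84 and 81.8% at 21 dpi against 0.679 to 3.8% of myeloid nuclei. In Ctrl its log2 ratio of 21 to 7 dpi was 0.68 (0.54 to 0.82), and to Ctrl it was -0.40 (-0.50 to -0.30) in ADWA11 at 7 dpi and -0.09 (-0.24 to 0.06) in Tgfbr2-cKO at 7 dpi. The other laminin chain among the markers, Lamc3, stood at 182, 175 and 275 CPM at 7 dpi and 129, 71.5 and 92.9 CPM at 21 dpi, with a UMI in 24.6 to 61.4% of nuclei against 0.226 to 1.68% of myeloid nuclei. The higher Lama1 level at 21 dpi was not matched by Lamc3, whose ratio in Ctrl was -0.50 (-0.81 to -0.20).

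Tmem132c and Edn3 were highest in the Ctrl library at 7 dpi. Tmem132c stood at 558, 252 and 318 CPM at 7 dpi and 159.8, 50.3 and 126 CPM at 21 dpi, highest in Ctrl at each time. Its log2 ratio to Ctrl was -0.81 (-1.02 to -0.60) in Tgfbr2-cKO and -1.15 (-1.28 to -1.02) in ADWA11 at 7 dpi, -1.67 (-2.47 to -0.95) in ADWA11 and -0.34 (-0.71 to 0.03) in Tgfbr2-cKO at 21 dpi, and -1.80 (-2.08 to -1.54) for Ctrl at 21 against 7 dpi. Edn3 stood at 98.3, 47.4 and 32.2 CPM at 7 dpi and 40.7, 31.4 and 38.1 CPM at 21 dpi, so that the Ctrl library at 7 dpi was above the other 5. Its ratios at 7 dpi were -1.61 (-2.24 to -1.03) in Tgfbr2-cKO and -1.05 (-1.34 to -0.77) in ADWA11, and that of Ctrl at 21 against 7 dpi was -1.27 (-1.80 to -0.78).

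Aldh1a2 had less spread between libraries than Tmem132c or Edn3. Aldh1a2 stood at 314, 425 and 405 CPM at 7 dpi and 331, 274 and 426 CPM at 21 dpi, within a 2-fold range, and Tgfbr2-cKO had a ratio of 0.36 (0.14 to 0.58) at 7 dpi and one of 0.37 (0.08 to 0.65) at 21 dpi. Slc6a13 stood at 305, 304 and 297 CPM at 7 dpi and 289, 181 and 488 CPM at 21 dpi, with the lowest value in ADWA11 and the highest in Tgfbr2-cKO, both at 21 dpi (-0.67, -1.13 to -0.23 and 0.76, 0.49 to 1.03). Of the pan-fibroblast genes, measured likewise in nuclei that qualified without the gene itself, the collagen chain Col1a2 stood at 1522, 1125 and 704 CPM at 7 dpi and 1420.5, 1278 and 436 CPM at 21 dpi, which gave -1.11 (-1.24 to -0.99) and -1.70 (-1.87 to -1.54) for Tgfbr2-cKO. The RNA-binding protein gene Bicc1 gave -0.49 (-0.58 to -0.40) and -0.19 (-0.30 to -0.09). All these marker and pan-fibroblast ratios include the other-class nuclei. At 7 dpi those nuclei held 37.7% of member UMIs in Tgfbr2-cKO and 9.47% in Ctrl, and at 21 dpi 34.4% and 11.4%. Their part in the ratios was not tested. Col1a2 also had a UMI in 64, 53.7 and 4.83% of myeloid nuclei at 7 dpi and 78.4, 64.7 and 9.35% at 21 dpi, and the part of such RNA in these ratios was not tested.

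**Figure D3:**
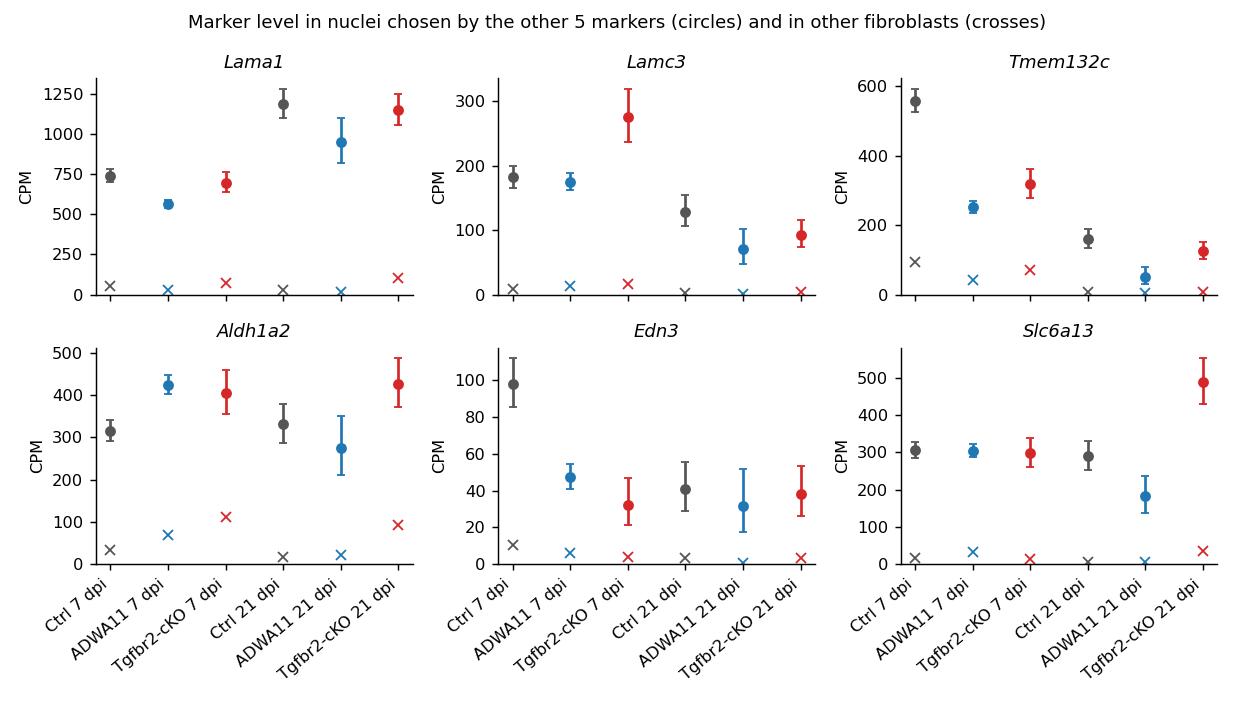
Level (CPM) of the 6 leptomeningeal markers by library. Grey is Ctrl, blue ADWA11 and red Tgfbr2-cKO. Circles are nuclei chosen by the other 5 markers, other-class nuclei included, with exact 95% Poisson intervals. Crosses are other fibroblasts without other-class nuclei. Lama1 lies between 561 and 1185 CPM, and Tmem132c is highest in Ctrl at both times.

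The gene targeted in the Tgfbr2-cKO mice was still counted in the members. Tgfbr2 stood at 291, 235 and 167 CPM at 7 dpi and 200.4, 157 and 208 CPM at 21 dpi in members, and its log2 ratio was -0.80 (-1.06 to -0.55) at 7 dpi (-0.25 without other-class nuclei) and 0.05 (-0.24 to 0.34) at 21 dpi. In other fibroblasts it stood at 296, 213 and 61.1 CPM at 7 dpi and 196, 206 and 118 CPM at 21 dpi, with ratios of -2.28 and -0.73. These other fibroblasts include other-class nuclei. Their summed neuron markers were 4148 CPM in Tgfbr2-cKO and 243 CPM in Ctrl at 7 dpi, and 1357 and 352 CPM at 21 dpi. The part of such nuclei in the 2 ratios was not tested. The UMIs of a gene are counted over all of its transcript, and RNA of an allele lacking 1 exon is still counted. The Tgfbr2 levels thus do not measure the deletion, and the share of members that had recombined is unknown. At least 1 UMI for Col1a2, whose promoter drives the Cre, was found in 89% (81.2 to 94.4) and 83% (74.2 to 89.8) of the Tgfbr2-cKO nuclei that qualified without it at 7 and 21 dpi, and in 98.0% and 95% of those of Ctrl.

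Between libraries a gene is called higher or lower below when its level in members differed by at least 2-fold and the 95% counting interval of the ratio, printed after each ratio, lay apart from no change. In the Tgfbr2-cKO library 726 of 9132 genes were higher (7.95%) and 373 lower (4.08%) at 7 dpi. There 550 of 9504 were higher (5.79%) and 631 lower (6.64%) at 21 dpi, and with TMM scaling, which sets library totals by the bulk of genes, that split turned to 624 higher and 504 lower, or from 46.6% to 55.3% higher. In the ADWA11 library 654 of 12076 were higher (5.42%) and 241 lower (2.0%) at 7 dpi, whereas 228 of 7160 were higher (3.18%) and 261 lower (3.65%) at 21 dpi. From 7 to 21 dpi in Ctrl, 553 of 9339 genes were higher (5.92%) and 358 lower (3.83%). With TMM, which shifted all log2 ratios of this comparison by -0.14, the split turned to 450 higher and 529 lower, or from 60.7% to 46.0% higher. These shares are the background against which the counts of each gene list are read. Without the other-class nuclei the Tgfbr2-cKO counts at 7 dpi were 182 and 158, with 106 and 101 shared, and those at 21 dpi were 326 and 490, with 248 and 361 shared.

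Several basement membrane genes were lower in Tgfbr2-cKO members at 21 dpi. Of 8 basement membrane collagens and proteoglycans 4 were lower (Col4a1, Col4a2, Col15a1 and Col18a1) and 0 higher, with a median log2 ratio of -1.07 against -0.09 over all genes. Of 7 laminins and nidogens 3 were lower (Lamb1, Lamc1 and Nid1) with a median of -0.77. The same 4 and 3 genes stayed past the threshold after the level in myeloid nuclei was subtracted, and the counts were also 4 and 3 without other-class nuclei. Col4a1, the main network collagen chain, stood at 1164, 779 and 737 CPM at 7 dpi and 684, 323 and 239.9 CPM at 21 dpi. In the 21 dpi libraries it was lowest in Tgfbr2-cKO, with a ratio of -1.51 (-1.73 to -1.29), and lower in ADWA11 as well, at -1.08 (-1.34 to -0.83). Its partner Col4a2 stood at 538, 273 and 208 CPM at 21 dpi, with -1.37 (-1.62 to -1.14) in Tgfbr2-cKO.

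The laminin chains were among the lower genes. Lamb1 stood at 357, 302 and 170.1 CPM at 7 dpi and 182, 139 and 75.1 CPM at 21 dpi, and the ratio of Tgfbr2-cKO at 21 dpi was -1.27 (-1.69 to -0.87), or -1.11 without other-class nuclei. Lamc1, the laminin chain shared by most tissues, stood at 595, 331 and 255 CPM at 21 dpi with a ratio of -1.23 (-1.45 to -1.01). At 7 dpi the Tgfbr2-cKO values were less secure. Of the collagens Col4a5 (-1.02, -1.17 to -0.86) and Col4a6 (-1.03, -1.22 to -0.85) were lower, and of the laminins and nidogens Lamb1 (-1.07, -1.32 to -0.82) and Nid2. Without other-class nuclei 0 of 8 and 0 of 7 remained lower and the ratios of Col4a5, Col4a6 and Lamb1 were -0.43, -0.48 and -0.59. In ADWA11 at 7 dpi none of the 9 basement membrane collagens and proteoglycans passed the threshold.

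Most fibrillar and other collagens were lower in the same library. Of 7 fibrillar collagens 5 were lower in Tgfbr2-cKO at 21 dpi (Col1a1, Col5a1, Col5a3, Col11a1 and Col27a1), with a median of -1.22, and 6 were lower without other-class nuclei. In male nuclei Col11a1 was not lower. Of 11 collagen VI, FACIT and related collagens 8 were lower and 1, Col6a5, was higher, with a median of -1.40. After subtraction of the myeloid level, 3 of the 5 and 3 of the 8 stayed past the threshold. Col5a1, a regulator of fibril width, stood at 115, 114 and 49 CPM at 21 dpi (-1.22, -1.75 to -0.72) and Col27a1 at 140.2, 70.4 and 51.1 CPM (-1.46, -1.96 to -0.98), with ratios of -1.15 and -1.73 after the subtraction. For Col1a1, the main chain of type I collagen, the members stood at 810.2, 509 and 430.2 CPM at 7 dpi and 596, 540.1 and 145 CPM at 21 dpi and myeloid nuclei at 423, 154 and 12.5 CPM at 7 dpi and 474, 258 and 20.7 CPM at 21 dpi. Its ratio of -2.04 (-2.32 to -1.77) in Tgfbr2-cKO at 21 dpi became 0.02 after the subtraction, so the lower level of Col1a1 was not separable from its level in nuclei that should lack it.

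Col25a1 was lower in every treated library. This transmembrane collagen stood at 309, 142 and 102 CPM at 7 dpi and 177, 20.7 and 17.7 CPM at 21 dpi in members, above both treated libraries in Ctrl at each time. In Tgfbr2-cKO the 7 dpi ratio was -1.60 (-1.92 to -1.29) and the 21 dpi ratio -3.32 (-4.13 to -2.60), and in ADWA11 they were -1.12 (-1.27 to -0.97) and -3.09 (-4.18 to -2.18). Without other-class nuclei the same 4 ratios were -1.76, -3.46, -1.16 and -2.91. Col8a1, a short-chain collagen of vessel walls and activated fibroblasts, stood at 965, 273 and 412 CPM at 7 dpi and 587, 409.8 and 201 CPM at 21 dpi and was lower in ADWA11 at 7 dpi (-1.82, -1.92 to -1.72) and in Tgfbr2-cKO at both times (-1.23, -1.39 to -1.07 and -1.54, -1.78 to -1.31). In Tgfbr2-cKO at 7 dpi its ratio was -0.80 (within the threshold) without other-class nuclei, and at 21 dpi it was 0.25 after the myeloid level was subtracted. In male nuclei Col8a1 was not lower in Tgfbr2-cKO at 7 dpi.

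**Figure D4:**
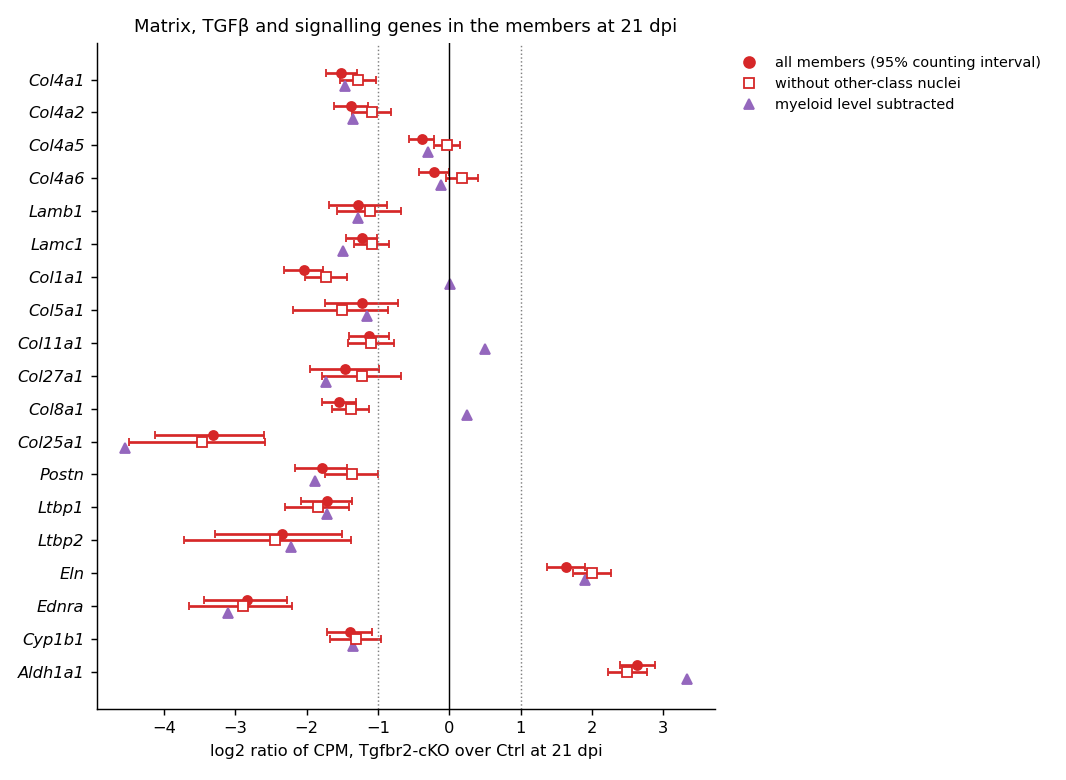
Log2 ratio of Tgfbr2-cKO to Ctrl in members at 21 dpi for 19 matrix, TGFβ-pathway, endothelin and retinoic acid genes. Red circles are all members with 95% counting intervals, and open squares leave out nuclei with markers of another class. Purple triangles are ratios after the myeloid level of the same library was subtracted. Col4a1 (-1.51, -1.73 to -1.29) and Ltbp1 (-1.71, -2.07 to -1.36) lie past 2-fold, and Col1a1 moves from -2.04 (-2.32 to -1.77) to 0.02 on subtraction.

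Genes of TGFβ storage and reception were partly lower. Of 15 receptors, ligands and latency proteins 4 were lower in Tgfbr2-cKO at 21 dpi (Tgfbr1, Ltbp1, Ltbp2 and Itgb5) and 0 higher, with a median of -0.62, and 2 of the 4 stayed past the threshold after the myeloid level was subtracted. Tgfbr1, the signalling receptor, stood at 302, 260.2 and 202 CPM at 7 dpi and 454, 261 and 173 CPM at 21 dpi, with -1.39 (-1.66 to -1.13) at 21 dpi. Ltbp1, which tethers latent TGFβ to the matrix, stood at 297, 137 and 90.8 CPM at 21 dpi and was lower in Tgfbr2-cKO (-1.71, -2.07 to -1.36) and in ADWA11 (-1.12, -1.53 to -0.73). At 7 dpi 1 of 16 genes of this list, Ltbp2, was lower in ADWA11. Ltbp2, a fibrillin-binding protein, stood at 38.7, 6.19 and 12.1 CPM at 7 dpi and 74.1, 106 and 14.6 CPM at 21 dpi, with ratios of -2.65 (-3.30 to -2.03) in ADWA11 and -1.68 (-2.73 to -0.78) in Tgfbr2-cKO at 7 dpi and -2.34 (-3.28 to -1.51) in Tgfbr2-cKO at 21 dpi. Itgb8, which encodes the integrin chain that ADWA11 binds, stood at 105, 143 and 77.9 CPM at 7 dpi and 128, 259 and 176 CPM at 21 dpi and its ratio in ADWA11 at 21 dpi was 1.01 (0.65 to 1.38), or 0.47 (within the threshold) without other-class nuclei.

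Genes downstream of the receptors were lower in part as well. Pmepa1, a feedback inhibitor induced by TGFβ, stood at 699, 214 and 436 CPM at 7 dpi and 317, 157 and 149 CPM at 21 dpi. It was lower in ADWA11 at 7 dpi (-1.71, -1.82 to -1.60) and 21 dpi (-1.01, -1.39 to -0.65), in Tgfbr2-cKO at 21 dpi (-1.09, -1.38 to -0.80) and in Ctrl at 21 against 7 dpi (-1.14, -1.32 to -0.97). The 21 dpi ratios of ADWA11 and Tgfbr2-cKO were -0.95 and -0.82 without other-class nuclei. Of 8 Smad and feedback genes Pmepa1 and Skil were the 2 that were lower in Tgfbr2-cKO at 21 dpi. Of 8 TGFβ target genes 2 were lower there (Tnc and Tgfbi) and 2 higher (Sphk1 and Ctps). Tnc, the matrix protein tenascin C, stood at 111, 72.7 and 34 CPM at 7 dpi and 101, 66.2 and 23 CPM at 21 dpi, with ratios of -1.71 (-2.29 to -1.17) and -2.13 (-2.87 to -1.46) in Tgfbr2-cKO.

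Of 3 myofibroblast genes examined, 1 was lower in Tgfbr2-cKO at 7 dpi (Fn1, not called without other-class nuclei), 0 in ADWA11 at 7 dpi and 1 in each treatment at 21 dpi (Postn). Postn, the matricellular protein periostin, stood at 366, 227 and 221 CPM at 7 dpi and 291, 86.9 and 84.5 CPM at 21 dpi and was lower at 21 dpi in Tgfbr2-cKO (-1.79, -2.16 to -1.43) and in ADWA11 (-1.74, -2.25 to -1.27), with -1.36 and -1.67 without other-class nuclei. In Ctrl, 2 of 3 myofibroblast genes were lower at 21 than at 7 dpi, namely Fn1, fibronectin (-1.10, -1.28 to -0.91), and Cthrc1, a secreted protein of collagen-producing fibroblasts (-1.36, -1.98 to -0.80). Eln, the gene for elastin, named under the rule for single genes and in no list, stood at 528, 73.4 and 466 CPM at 7 dpi and 161, 37.3 and 499 CPM at 21 dpi and was lower in ADWA11 at 7 dpi (-2.85, -3.02 to -2.67) and 21 dpi (-2.11, -2.90 to -1.41) and in Ctrl at 21 against 7 dpi (-1.71, -1.96 to -1.48). The high Eln level of Tgfbr2-cKO at 21 dpi (1.63, 1.37 to 1.90) rested on few nuclei, since its ratio was 0.38 without the 5 nuclei of each library with most Eln UMIs, 0.58 in female and 3.85 in male nuclei.

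An endothelin receptor gene was lower in both treatments at 21 dpi. Ednra, the endothelin receptor A, stood at 218, 162 and 154 CPM at 7 dpi and 215, 78.6 and 30.3 CPM at 21 dpi, with the 2 treated libraries at 21 dpi below the other 4. Its ratio was -2.83 (-3.44 to -2.27) in Tgfbr2-cKO and -1.45 (-1.99 to -0.95) in ADWA11, and -2.89 and -1.65 without other-class nuclei. Of the 3 endothelin pathway genes measured, 2 were lower in Tgfbr2-cKO at 21 dpi (Ednra and Ece1, which cleaves the endothelin precursor) and 1 in ADWA11. Without other-class nuclei Ece1 was no longer called, and 1 was lower in each.

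The retinoic acid genes moved in both directions. Of 12 in Tgfbr2-cKO at 21 dpi, 2 were higher (Aldh1a1 and Cyp26b1) and 3 lower (Rdh10, Stra6 and Cyp1b1), with a median of -0.52, and the same numbers held without other-class nuclei and after subtraction. Aldh1a1, a second retinal dehydrogenase, stood at 76, 89.8 and 108 CPM at 7 dpi and 168, 217 and 1041 CPM at 21 dpi, and the Tgfbr2-cKO library at 21 dpi was above the other 5, at 2.63 (2.40 to 2.88) against Ctrl. The ratio for Aldh1a1 was 2.49 without other-class nuclei and 1.70 in other fibroblasts. Rdh10 makes retinal from retinol and Stra6 takes up retinol, so that the genes that were lower included steps before Aldh1a1, and Cyp26b1 degrades retinoic acid.

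Several genes of leptomeningeal identity were higher at 21 than at 7 dpi in Ctrl members. Of the 19 leptomeningeal and vascular leptomeningeal genes 7 were higher (Trpm3, Slc6a20a, Ptgds, Igf2, Nnat, Ogn and Nupr1) and 0 lower, with a median of 0.67 against 0.01 over all genes. The count was 7 without other-class nuclei and 6 of the 7 stayed past the threshold after the myeloid level was subtracted. Ptgds, which makes prostaglandin D2 and is among the most abundant proteins of the cerebrospinal fluid, stood at 62.7, 91.5 and 77.9 CPM at 7 dpi and 999, 1078 and 1633 CPM at 21 dpi, so all 3 libraries at 21 dpi were above all 3 at 7 dpi. Its ratio in Ctrl was 3.99 (3.76 to 4.24). Slc6a20a stood at 224, 293 and 448 CPM at 7 dpi and 1008, 1009.9 and 1511 CPM at 21 dpi, again with all 21 dpi libraries above all 7 dpi libraries, and its ratio in Ctrl was 2.17 (2.02 to 2.32).

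Trpm3 was the gene of the list that was higher in every comparison. This cation channel gene stood at 1205, 3677 and 3549.9 CPM at 7 dpi and 4628, 11070.0 and 22326 CPM at 21 dpi in members and at 91.5, 478 and 134 CPM at 7 dpi and 411, 270.3 and 780.3 CPM at 21 dpi in myeloid nuclei. At both times Ctrl was the lowest of the 3 libraries. The ratios were 1.56 (1.49 to 1.63) and 2.27 (2.22 to 2.32) in Tgfbr2-cKO, 1.61 (1.55 to 1.67) and 1.26 (1.20 to 1.31) in ADWA11 at 7 and 21 dpi, and 1.94 (1.88 to 2.01) in Ctrl at 21 against 7 dpi. The value for Tgfbr2-cKO at 7 dpi fell to 0.31 without the 5 nuclei of each library with most Trpm3 UMIs and was 2.25 without other-class nuclei. Those 5 nuclei were a larger part of the 104 members of Tgfbr2-cKO than of the 302 of Ctrl.

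Slc7a11 stood at 922, 1679.5 and 1455 CPM at 7 dpi and 1657, 1378 and 3481 CPM at 21 dpi, highest in Tgfbr2-cKO at 21 dpi (1.07, 0.99 to 1.16). That ratio was 1.55 in female and 0.14 in male nuclei, and 3.70 in other fibroblasts. Dpp4, a peptidase of arachnoid and other fibroblasts, stood at 2.28, 9.51 and 12.1 CPM at 7 dpi and 93.8, 124 and 118 CPM at 21 dpi, with every 21 dpi library above every 7 dpi library (5.36, 4.19 to 6.85 in Ctrl). In ADWA11 at 7 dpi its ratio was 2.06 (0.82 to 3.58), on 6, 43 and 11 UMIs in the 7 dpi libraries. The levels of Dpp4 in Ctrl and ADWA11 members at 7 dpi were below those in myeloid nuclei of the same libraries, 18.3 and 14.0 CPM, so no ratio was left after subtraction there.

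Most of the glucocorticoid-responsive genes measured were higher in Tgfbr2-cKO members. Of 5 measured genes 4 (Fkbp5, Per1, Zbtb16 and Sgk1) were higher at 7 dpi, with a median of 1.59, and the same 4 at 21 dpi, with a median of 2.26. In male nuclei Per1 was not higher at 21 dpi. Without other-class nuclei 2 of the 2 genes that could be examined were higher at 7 dpi and 4 of 5 at 21 dpi. Fkbp5, a chaperone partner of the glucocorticoid receptor, stood at 50.1, 95.1 and 113 CPM at 7 dpi and 169, 217 and 954 CPM at 21 dpi in members, 102, 148 and 107 CPM at 7 dpi and 172, 199 and 528 CPM at 21 dpi in other fibroblasts and 135, 111 and 207 CPM at 7 dpi and 144, 60.9 and 767 CPM at 21 dpi in myeloid nuclei. The high value in Tgfbr2-cKO at 21 dpi (2.50, 2.26 to 2.74) was thus accompanied by the highest value of the 6 libraries in other fibroblasts and in myeloid nuclei too. At 7 dpi the ratio of 1.17 (0.79 to 1.56) was -0.65 in male nuclei.

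Zbtb16, a zinc finger repressor, stood at 5.7, 45.1 and 156 CPM at 7 dpi and 36.5, 82.8 and 758 CPM at 21 dpi, and its ratio was 4.77 (4.00 to 5.65) and 4.38 (3.90 to 4.89) in Tgfbr2-cKO and 2.98 (2.23 to 3.85) and 1.18 (0.50 to 1.87) in ADWA11. The last of these was -1.85 in female nuclei. In Ctrl the same gene was higher at 21 than at 7 dpi (2.68, 1.78 to 3.65). Sgk1, a kinase that regulates ion transport, stood at 12.5, 18.8 and 84.5 CPM at 7 dpi and 14.8, 33.1 and 70.9 CPM at 21 dpi, below its level in myeloid nuclei of every library. Hif3a, listed with the hypoxia genes, stood at 1.52, 4.86 and 8.78 CPM at 7 dpi and 1.97, 2.07 and 111 CPM at 21 dpi and the Tgfbr2-cKO library at 21 dpi was above the other 5 (5.81, 3.92 to 8.87, on 2, 1 and 106 UMIs in the 21 dpi libraries).

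**Figure D5:**
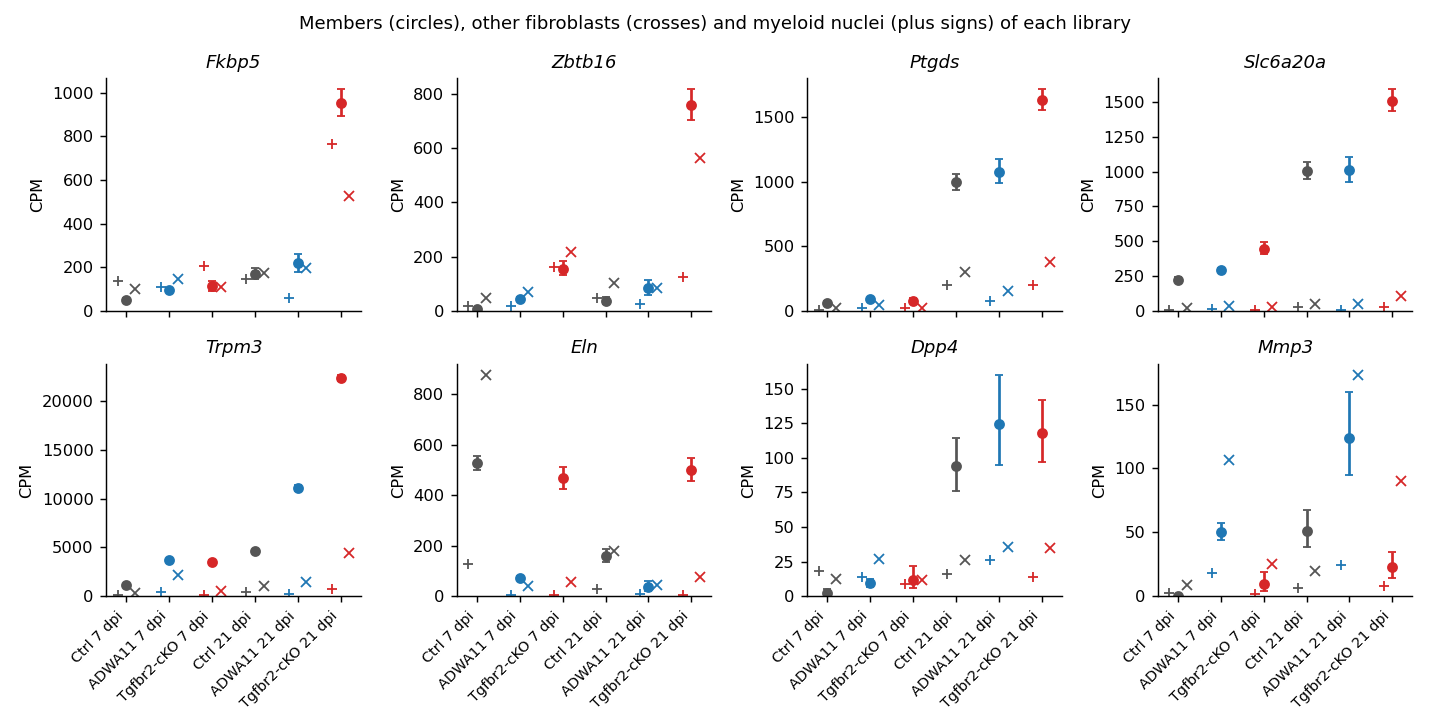
Level (CPM) of 8 genes by library; grey is Ctrl, blue ADWA11 and red Tgfbr2-cKO, circles are members with exact 95% Poisson intervals, crosses other fibroblasts and plus signs myeloid nuclei. Ptgds lies between 62.7 and 91.5 CPM in members at 7 dpi and between 999 and 1633 CPM at 21 dpi, and Fkbp5 is highest in Tgfbr2-cKO at 21 dpi in members, other fibroblasts and myeloid nuclei.

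Proliferation genes were lower at 21 than at 7 dpi in Ctrl members for 6 of 9 genes measured, with a median of -1.32, and in Tgfbr2-cKO at 7 dpi for 5 of 9, with a median of -1.24. After the myeloid level was subtracted 0 of either stayed past the threshold. That level can include RNA made by the myeloid nuclei themselves, so the subtraction cannot separate stray RNA from RNA of the members. Top2a, which untangles DNA in dividing cells, stood at 35.3, 65 and 24.1 CPM at 7 dpi and 11.8, 0 and 0 CPM at 21 dpi, and the 12 UMIs of Ctrl at 21 dpi came from 1 nucleus. The proteases differed in another way. Mmp13, a collagenase, stood at 88.5, 54.6 and 6.58 CPM at 7 dpi and 59.2, 78.6 and 53.2 CPM at 21 dpi and was lower in Tgfbr2-cKO at 7 dpi (-3.75, -5.21 to -2.60). Mmp3, stromelysin, stood at 0, 50.2 and 9.88 CPM at 7 dpi and 51.3, 124 and 23 CPM at 21 dpi, with 0 UMIs in Ctrl at 7 dpi. Against the floor of 3 counts over that library, its log2 ratio was at least 5.46 in ADWA11 at 7 dpi (227 UMIs) and at least 5.49 in Ctrl at 21 dpi (52 UMIs).

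The genes with the largest ratios under the naming rule differed between the comparisons. In Tgfbr2-cKO at 7 dpi the 5 highest (Gabrg3, Grin2b, Myt1l, Pcsk2 and Sorcs3) are neuronal genes, moving with the neuron markers given above, and Gabrg3 at 0.38, 7.74 and 405 CPM no longer passed the threshold without other-class nuclei. Among the lowest, Mecom, a zinc finger regulator, stood at 91.2, 7.96 and 5.49 CPM at 7 dpi (-4.05, -5.69 to -2.81 in Tgfbr2-cKO and -3.52, -4.07 to -3.01 in ADWA11). Without other-class nuclei its ratios were -0.61 (within the threshold) and -1.10. In Tgfbr2-cKO at 21 dpi the highest were Dpp10, Hif3a, Lingo2, Nrg3 and Syt1, 4 of them neural genes. Dpp10, an auxiliary potassium channel subunit, stood at 2.96, 0 and 590.5 CPM in members and 82.9, 10.1 and 1283 CPM in myeloid nuclei.

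On the low side of Tgfbr2-cKO at 21 dpi were Spon1, a secreted matrix protein, Atp6v0a4, a proton pump subunit, and the matrix genes Cpxm2 and Matn4, with Arhgap22. Spon1 stood at 16.3, 27 and 36.2 CPM at 7 dpi and 151, 2.07 and 10.4 CPM at 21 dpi, highest in Ctrl at 21 dpi, and was lower at 21 dpi in Tgfbr2-cKO (-3.86, -4.95 to -2.94) and ADWA11 (-6.19, -11.50 to -3.69) and higher in Ctrl at 21 than at 7 dpi (3.21, 2.71 to 3.73). The Spon1 level of ADWA11 at 21 dpi rested on 1 UMI. Atp6v0a4 stood at 36.8, 10.8 and 12.1 CPM at 7 dpi and 108, 72.4 and 7.3 CPM at 21 dpi, with -3.88 (-5.23 to -2.79) in Tgfbr2-cKO at 21 dpi and -1.61 (-2.66 to -0.71) at 7 dpi. Cpxm2 (-3.68, -6.79 to -1.68), Matn4 (-3.87, -6.98 to -1.90) and Arhgap22 (-3.35, -5.29 to -1.89) rested on 2 to 4 UMIs in Tgfbr2-cKO.

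In ADWA11 members at 7 dpi the highest genes were Dscam, Dscaml1, Lancl3, Mmp3 and Slc1a1. Slc1a1, a glutamate carrier, had a ratio of 4.66 (3.08 to 6.95). Without other-class nuclei it was 1.64, a smaller value still past 2-fold, whose counting interval is not given here. The other-class nuclei of that library included 18 with oligodendrocyte precursor markers and 23 with myeloid markers. The lowest were Eln, Ltbp2, Mecom, Mn1 and Tnni1. In ADWA11 members at 21 dpi the highest were C3, Ctss, H2-Ab1, Nos1ap and Sntb1. The complement component C3 stood at 29.6, 147 and 8.35 CPM at 21 dpi (2.31, 1.68 to 2.98), and Ctss, a lysosomal protease of myeloid cells, at 28.6, 122 and 29.2 CPM (2.09, 1.43 to 2.79) against 304 to 701 CPM in myeloid nuclei. The summed myeloid markers in members were 124, 395 and 116 CPM at 21 dpi, and their part in these genes was not tested. The lowest were Fgf14, Prdm1, Prss12, Sidt1 and Spon1, of which Sidt1, a nucleic acid transporter, stood at 77, 6.21 and 239 CPM (-3.63, -5.94 to -2.03).

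From 7 to 21 dpi in Ctrl the highest genes were Atp13a5, Dpp4, Igha, Igkc and Ptgds, and the lowest Nipal4, Pi15, Tfrc, Wdhd1 and Zim1. Atp13a5, a P-type ATPase, stood at 12.9, 11.3 and 39.5 CPM at 7 dpi and 167, 29 and 36.5 CPM at 21 dpi (3.69, 3.15 to 4.27). Igkc, an antibody light chain made by plasma cells, stood at 1.52, 0.663 and 0 CPM at 7 dpi and 71.1, 55.9 and 45.9 CPM at 21 dpi in members and 3.38, 0.686 and 0.613 CPM at 7 dpi and 91.1, 89.2 and 58.1 CPM at 21 dpi in myeloid nuclei, so it was higher at 21 dpi in nuclei of both kinds. Pi15, a secreted protease inhibitor, stood at 40.6, 31.4 and 5.49 CPM at 7 dpi and 0.987, 8.28 and 1.04 CPM at 21 dpi (-5.36, -10.68 to -2.85), and Tfrc, the transferrin receptor, at 39.5, 17 and 14.3 CPM at 7 dpi and 2.96, 20.7 and 5.22 CPM at 21 dpi (-3.74, -6.04 to -2.15). Both levels in Ctrl at 21 dpi rested on very few UMIs.

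Other signalling lists held genes of both directions. In Tgfbr2-cKO at 21 dpi, where 5.79% of all genes were higher and 6.64% lower, 4 of 16 growth factors and receptors were higher (Fgf7, Vegfd, Pdgfd and Hgf) and 3 lower (Igf1, Pdgfa and Pdgfra). Of the guidance genes, 4 of 12 semaphorins, slits and ephrins were higher (Sema3a, Sema3d, Sema6d and Slit3) and 1 lower (Efnb2). In the same library 1 of 11 Wnt genes was higher (Wnt16) and 1 lower (Wnt9a), and of 21 fibroblast transcription factors 1 was higher (Ebf3) and 2 lower (Ebf2 and Nr2f1), numbers near the shares over all genes. In ADWA11 at 21 dpi, 3 of 8 chemokine and lymphocyte-interaction genes were higher (Cxcl1, Ccl7 and Icam1) and 1 lower (Il33), but without other-class nuclei 0 were higher. In Ctrl, 3 of 6 genes of that list were higher at 21 than at 7 dpi (Cd80, Il33 and Vcam1), with 3 higher without other-class nuclei as well.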

How the data were processed

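Nuclei of dissected lesions, stained with DAPI and sorted, were profiled as 6 droplet libraries of 1 male and 1 female mouse each. The deposited values are unnormalised UMI counts per gene and barcode that the authors made with Cell Ranger (7.2.0 per the file headers, 7.1.0 in the submitters' processing notes) against mm10. Barcodes with at least 1000 UMIs and under 5% mitochondrial UMIs were kept (60729 of 67360). The members and all gene lists were chosen with earlier results of these data known.

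Member counts were summed per library and divided by their non-mitochondrial total (CPM). With 1 library per group there is no test. Ratios carry exact binomial 95% intervals, CPM exact Poisson and shares Clopper-Pearson intervals, all for counting error only. PCR and mouse-to-mouse spread are not in them, and the intervals of CPM and of CPM ratios also leave out the spread between nuclei. Genes expected to have at least 10 UMIs in the library with fewer UMIs were examined, leaving out the 16 rule genes, mitochondrial genes and genes that mark sex. A count of 0 was set to a floor of 3 counts. Myeloid nuclei held at least 4 of 7 myeloid markers, and oligodendrocyte nuclei at least 4 of their own. Nuclei were called female or male by Xist and Y-linked genes (495 and 432 members, 211 uncalled) as a stand-in for the pooled mice. Doublet scores called 9.41% of all nuclei and 56 members, which were kept in the main values.

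Named genes were, per comparison and direction, the 5 called genes with the largest ratio that had a UMI in at least 20 member nuclei, kept their direction in both sexes and stayed past 2-fold without the 5 nuclei of each library with most UMIs of the gene, with predicted genes left out. The library total was kept in that setting, and leaving out 5 nuclei takes more from a library with fewer members. Against other fibroblasts the 12 largest median ratios per direction were taken at a pooled level of at least 20 CPM, from each list up to 4 genes of highest level, and always the rule genes, Tgfbr2, Tgfbr1 and Itgb8. Genes named only inside a list's count carry no value of their own, and the counts of some lists are not reported here.

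Alternatives were TMM factors (edgeR 4.0.16 under R 4.3.3), other count filters, marker numbers and depths, and nuclei left out. The code ran under Python 3.11.15 with numpy 2.4.6, scipy 1.17.1, pandas 2.3.3, scikit-learn 1.9.0 and matplotlib 3.10.9, and was tested on simulated counts. Positions are from GENCODE M21.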

Additional observations from a re-analysis of the deposited data

Results flagged for a closer look

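The share of members among all nuclei moved in opposite directions in Tgfbr2-cKO against Ctrl at the 2 times, with a log2 ratio of -2.0 (-2.33 to -1.67) at 7 dpi and 0.61 (0.24 to 0.97) at 21 dpi. In female nuclei the values were -2.68 and 0.89 and in male nuclei -1.22 and 0.33, so both sexes moved the same way at each time. The difference between the times was not tested, because each value rests on 1 library per group, and the 21 dpi interval included 0 in male nuclei, without other-class nuclei, at 4000 UMIs per nucleus, with at least 3 pan-fibroblast genes and no Ptprc or Csf1r UMI (0.32, -0.09 to 0.73) and with no excluded gene allowed (0.46, -0.16 to 1.06).

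Atp13a5 had a log2 ratio of 1.61 in Tgfbr2-cKO against Ctrl members at 7 dpi and of -2.19 at 21 dpi, and the difference was not tested. At 7 dpi it had 36 UMIs in 5 nuclei of the Tgfbr2-cKO library, and the ratio in male nuclei was -2.45.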

How the results depend on the processing

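No paired analysis was possible because each group is 1 library, so that any pair of groups shares fewer than 2 replicate numbers. Depth limits these values, since 66 members carry the ADWA11 comparison at 21 dpi and the largest nuclei weigh most in summed counts. Counts are given as higher and lower, and where a value moved the cause was not tested unless the setting itself examines fewer genes or nuclei.

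Log2 ratios of the member share of all nuclei moved to -2.03 (Ctrl, 21 against 7 dpi) and -1.78 (ADWA11, 21 dpi) with at least 4 markers, to -2.35 for Tgfbr2-cKO at 7 dpi and to -0.32 and -1.66 for ADWA11 at 7 and 21 dpi with 2000 UMIs per nucleus, and for Tgfbr2-cKO at 7 dpi to -2.40 at 4000 UMIs, -1.50 with no excluded gene allowed, -2.68 in female and -1.22 in male nuclei. Ratios of the share of fibroblast-gated nuclei moved to -2.72 (Ctrl) and -1.09 (ADWA11, 21 dpi) with 4 markers, to 0.90, 2.72 and -0.98 at 2000 UMIs (Tgfbr2-cKO at 7 and 21 dpi, ADWA11 at 21 dpi), to 0.88 and 1.89 in male nuclei (Tgfbr2-cKO at 7 and 21 dpi), and for Tgfbr2-cKO at 7 dpi to 1.03 with no excluded gene and 0.91 without other-class nuclei. The share ratios listed kept their sign, whereas those of ADWA11 at 7 dpi lay on either side of 0 over the settings, and of the all-nuclei ones the interval left out 0 at 2000 and at 4000 UMIs per nucleus (-0.32 and -0.25).

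Genes past the threshold in Tgfbr2-cKO at 7 dpi numbered 337 and 165 with at least 30 expected UMIs, 358 and 194 without doublet calls, 182 and 158 without other-class nuclei, 88 and 186 after the myeloid level was subtracted, 237 and 201 in male nuclei, 327 higher in female nuclei, 1766 higher with no filter, and 246 lower by mean CPM per nucleus. At 21 dpi they numbered 265 and 253 with 30 UMIs, 331 and 333 in male nuclei, 316 and 416 after subtraction, 326 higher without other-class nuclei, and 381 lower with no excluded gene. In ADWA11 at 7 dpi they numbered 261 and 131 with 30 UMIs, 373 and 156 after subtraction, 406 higher in male nuclei, and 376 lower with no filter. In ADWA11 at 21 dpi they numbered 46 and 84 with 30 UMIs, 507 and 426 with no filter, 98 and 154 in female nuclei, and 153 lower after subtraction. In Ctrl from 7 to 21 dpi they numbered 144 and 168 with 30 UMIs, 1344 higher with no filter, 181 higher in male nuclei, 341 higher after subtraction, and 260 higher with no excluded gene. Against other fibroblasts, 52 and 85 genes passed at a pooled 100 CPM, 13 and 19 against transporter nuclei, and 66 were lower when other-class nuclei were left out, and leaving out 1 library gave 108 to 129 higher and 244 to 334 lower. TMM moved the higher share of calls from 46.6% to 55.3% in Tgfbr2-cKO at 21 dpi.

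Of 110 named ratios, 51 in female nuclei, 56 in male nuclei, 36 without other-class nuclei, 42 without the 5 nuclei with most UMIs of the gene, 28 by mean CPM per nucleus and 4 with TMM left the main counting interval with the same sign, against 52, 40, 69, 47, 80 and 104 that stayed inside it, and the others could not be computed for want of UMIs, apart from 6 that changed sign in 1 sex. These were in male nuclei Atp13a5 (-2.45), Fkbp5 (-0.65) and Col8a1 (0.12) for Tgfbr2-cKO at 7 dpi, Col11a1 (0.43) and Per1 (-0.28) for Tgfbr2-cKO at 21 dpi, and in female nuclei Zbtb16 (-1.85) for ADWA11 at 21 dpi.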
